A study of Mus musculus with 6 samples.

Results

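Shmt1 encodes the cytosolic serine hydroxymethyltransferase, and it was examined together with 6 other enzyme genes of folate-dependent one-carbon metabolism: Shmt2, Mthfd1, Mthfd2, Mthfd1l, Tyms and Mtr. Every probe set annotated with 1 of these 7 gene symbols and no other symbol was taken, which gave 20 probe sets of 45037 on the array, 4 of them for Shmt1. The gene group was drawn up because 2 Shmt1 probe sets had stood out between the genotypes compared here. The Shmt1 differences are therefore given as a description, and nothing is read from their p-values or calls. The other enzymes were listed for their place in the pathway.

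RNA was taken from microdissected node and primitive streak tissue of mouse embryos of E7.75 to E8, at 0 to 2 somites, on a mixed C57BL/6 and 129/Sv background. The groups were Wnt3a null embryos (3 pools) and Wnt3a wild-type embryos (3 pools). Each pool held amplified RNA of 3 embryos of matched stage and was hybridised to 1 Affymetrix Mouse Genome 430 2.0 array, so each genotype was represented by 9 embryos. Wnt3a is a secreted Wnt ligand of the primitive streak, and the study set out to find genes downstream of it; the sources used here do not say how the null allele was made.

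Folate metabolism moves single carbon units, taken mostly from serine, into thymidylate, purines and methionine. Mitochondrial enzymes release much of this carbon as formate, and cytosolic enzymes attach it again to tetrahydrofolate. Rapidly dividing embryonic tissue depends on the pathway for DNA synthesis, and it is best known in the early embryo for its part in neural tube closure. Mice that lack Shmt1 can show neural tube defects.

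Promoter windows, from 250 bases before to 50 bases after the annotated start, are given for both serine hydroxymethyltransferase genes, because they encode the cytosolic and the mitochondrial form of the same enzyme activity: 2 of 4 Shmt1 probe sets had log2 differences of -1.20 and -2.06, and those of the 4 Shmt2 probe sets ran from -0.15 to 0.19. The sequences are from RefSeq (GRCm38.p6), 5′ to 3′ on the strand of the gene, chr11:60811216-60811515 on the minus strand for Shmt1 and chr10:127522395-127522694 on the minus strand for Shmt2. Capitals mark CTTTG, or CAAAG where it lies on the other strand. These letters form the core of sites bound by TCF and LEF proteins, the nuclear mediators of Wnt signalling.
Shmt1: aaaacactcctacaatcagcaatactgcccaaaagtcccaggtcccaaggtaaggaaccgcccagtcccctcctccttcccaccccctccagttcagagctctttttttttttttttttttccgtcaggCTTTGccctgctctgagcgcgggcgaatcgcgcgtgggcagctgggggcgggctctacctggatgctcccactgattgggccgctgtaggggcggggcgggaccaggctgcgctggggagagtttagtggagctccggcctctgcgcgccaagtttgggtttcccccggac
Shmt2: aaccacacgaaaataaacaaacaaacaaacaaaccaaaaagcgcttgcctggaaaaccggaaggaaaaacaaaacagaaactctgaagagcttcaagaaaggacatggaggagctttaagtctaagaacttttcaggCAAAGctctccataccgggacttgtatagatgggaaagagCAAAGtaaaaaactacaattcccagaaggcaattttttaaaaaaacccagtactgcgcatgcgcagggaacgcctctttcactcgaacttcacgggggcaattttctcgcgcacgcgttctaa
Shmt1 has 1 such core and Shmt2 has 2. The core occurs on either strand in 53.9% of the 32851 promoter windows of this length and in 4 of the 7 enzyme genes. The longer form, CTTTG followed by 2 bases that are each A or T, occurs in 16.9% of the windows and in 0 of these 7. No match says only that those letters are not in the window. The CCAAT box was found in 4 of the 7 enzyme genes against 37.4% of all windows, and GGGCGG, the letters of a GC box, in 5 of 7 against 35.7%. Shmt1 holds 4 GGGCGG matches on both strands and 1 CCAAT match, and Shmt2 holds 0 of either. The longer form holds the core, and among the Shmt1 matches 1 pair of GGGCGG matches overlaps.

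The 4 Shmt1 probe sets did not act alike. Of the 3 that share 1 design sequence, all had lower signals in every null pool than in every wild-type pool, by a wide gap in 2 and a narrow one in 1425179_at. A probe set designed on another Shmt1 transcript sequence had overlapping groups. The enzyme they all report makes glycine and 5,10-methylenetetrahydrofolate from serine in the cytosol.

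Probe set 1425177_at, whose suffix stands for probes unique to 1 transcript, had the largest difference among the bright member probe sets. Its signal was 479, 761 and 589 in null pools 1, 2 and 3, against 2188, 2642 and 2667 in wild-type pools 1, 2 and 3. Every null pool lay far below every wild-type pool, and the gap between the genotypes was wider than the spread within either. The means were 609.5 ± 142 in null pools, against 2499 ± 269 in wild-type ones (SD, n = 3 each). On the log2 scale the difference, null minus wild type, was -2.06 with a standard error of 0.25, a 4.16-fold lower signal in null pools. By replicate number it was -2.19, -1.80 and -2.18.

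Probe set 1425178_s_at, whose suffix marks probes that can match more than 1 transcript, had signals of 930.4, 923 and 852 in null pools, against 2173, 2084 and 1968 in wild-type pools. These groups were also far apart, and each was tight. The means were 902 ± 43.4 in null pools, against 2075 ± 103 in wild-type ones (SD, n = 3 each). On the log2 scale the genotypes differed by -1.20 with a standard error of 0.19, a 2.30-fold lower signal in null pools, and by replicate number the difference was -1.22, -1.18 and -1.21.

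Probe set 1425179_at, from the same design sequence, had 2449, 2301 and 2410.1 in null pools, against 2485, 2513 and 2496 in wild-type pools. All null values lay below all wild-type values here too, but by a small margin. The SD was 77.0 among the null pools and 14.4 among the wild-type pools. The log2 difference was -0.07, with a 95% interval of -0.52 to 0.38, and a fold of 1.05.

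Probe set 1422198_a_at, whose suffix stands for probes common to alternative transcripts of 1 gene, had 518, 384 and 506 in null pools, against 365, 395 and 417 in wild-type pools. The groups overlapped, since null pool 2 lay below wild-type pools 2 and 3. Its log2 difference, null minus wild type, was 0.25, with a 95% interval of -0.30 to 0.79.

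**Figure D1:**
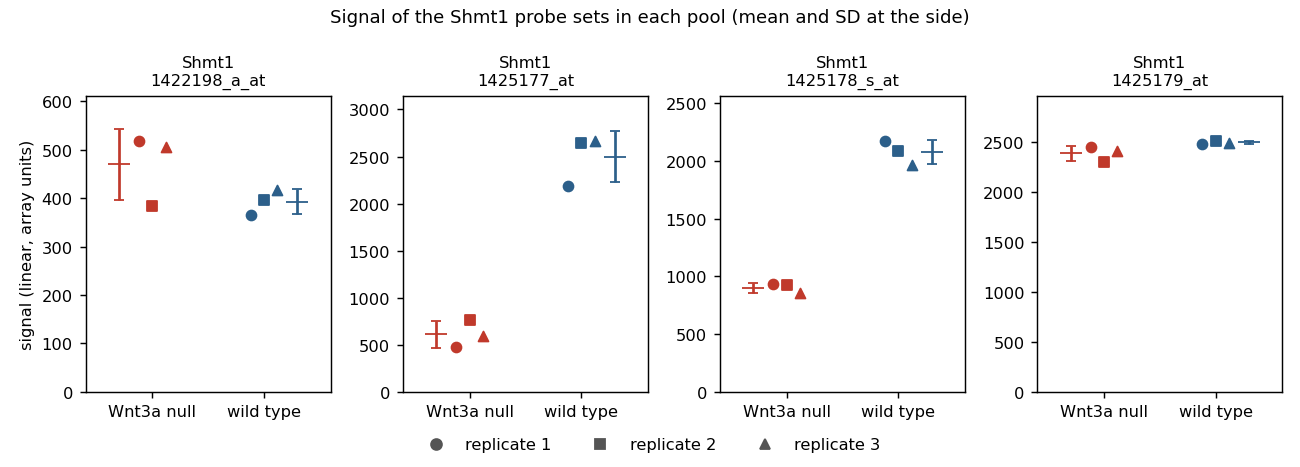
Linear signal of the 4 Shmt1 probe sets (1 panel each, vertical axes from 0) in each of 3 Wnt3a null and 3 wild-type pools, with the mean and SD (n = 3) beside the points; symbols give the replicate number. In 1425177_at and 1425178_s_at the null pools sit far below the wild-type pools, at means of 609.5 against 2499 and 902 against 2075, whereas in 1422198_a_at the groups overlap and in 1425179_at they lie close together.

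The probe sets of a gene can also be set against each other by the range of their log2 differences. Over the 4920 genes with at least 2 probe sets above the median signal, the range of the log2 differences within a gene had a median of 0.27. The range in Shmt1, chosen for some of these values, was 2.30. Shmt2 had a range of 0.34 over 4 bright probe sets, Mthfd1 of 0.22 over 3, Tyms of 0.15 over 2 and Mthfd2 of 0.05 over 2. A value for Shmt1 as a gene depends on the probe set. The probe set with the highest mean signal, 1425179_at, gives -0.07, while the mean over all 4 gives a log2 difference of -0.77 with a standard error of 0.16. That standard error reflects variation among pools and not the disagreement between the 4 probe sets. RefSeq lists 2 transcripts of Shmt1; where on them each probe set lies was not analysed here.

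Some features of the pools differed between the genotypes beside these Shmt1 values. The ratio of 3' to 5' control signal for Gapdh, a measure of RNA integrity that bears on how far from the transcript end a probe set can read, was 2.09 to 2.39 in null pools, against 2.51 to 3.00 in wild-type ones. For beta-actin the ratio was 2.38 to 3.83 in null pools, against 2.68 to 3.69 in wild-type ones, which overlapped, as did the ratios of the other 2 such controls. The summed signal of 10 measured node and streak markers, all of them above the median signal, was 5573 to 6241 in null pools, against 7787 to 10842 in wild-type ones. Of these 10, 9 had lower estimates and 4 had all null pools below all wild-type pools, while Foxa2, a node and endoderm gene, had a log2 difference of 0.32, and without Cdx2, which had the largest signal gap, the sums were 2754 to 3634 in null pools, against 4777 to 6188 in wild-type ones. For 6 heart markers, 1 of them above the median, the sum was 448 to 811 in null pools, against 332 to 414 in wild-type ones, but 2 of the 6 had lower estimates, and without Myl7, a myosin light chain gene, the sums overlapped (289 to 361 in null, 251 to 305 in wild type). Of 4 anterior neural markers, 2 lay above the median and 1 had a lower estimate. Their sum was 362 to 1672 in null pools, against 198 to 260.3 in wild-type ones. Without Otx2, a forebrain homeobox gene, it was 146.3 to 306 in null pools, against 131 to 145.6 in wild-type ones, a narrow gap. Sums for 6 visceral and yolk sac endoderm markers (38080.2 to 52161 in null, 30593 to 69057 in wild type) and for 4 blood markers (237 to 533 in null, 151 to 405 in wild type) overlapped. Sex composition differed among the pools of both genotypes. Xist, the RNA of the inactive X chromosome, had signals of 5098, 1068 and 1039 in null pools, against 5805, 1057 and 992 in wild-type pools on 1427262_at, so that both pools of replicate 1 stood apart. Eif2s3y, a Y-linked gene, was at 4.31 in wild-type pool 1, against 1053 to 1788 in the other 5 pools. Without both pools of replicate 1 the log2 difference was -1.99 for 1425177_at and -1.19 for 1425178_s_at. The part of RNA integrity, of sex composition and of tissue makeup in the Shmt1 result was not tested. In pooled tissue, fewer cells of a type and less RNA per cell cannot be told apart.

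Wnt signalling readouts were lower in null pools in value on bright probe sets. Axin2, a feedback inhibitor, had a log2 difference of -1.05 on its bright probe set. Its dim probe set 1421341_at had 0.26, with overlapping groups. Cdx1, a caudal homeobox gene, had -1.26, and Sp5, a zinc finger gene, -1.69. Without a block, Axin2 on its bright probe set, Cdx1 and Sp5 did not pass the test (limma adjusted p = 0.425, 0.344 and 0.470). With pools of one number treated as pairs and limma's trend and robust options, each of them passed (limma adjusted p = 0.0083, 0.0035 and 0.027). Wnt3a itself had -0.10 on 1 probe set, with overlapping groups. Where that probe set lies relative to the altered part of the gene was not analysed here, so its value does not check the labels.

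Across the 45037 probe sets, limma on log2 signals without a block called 0% at an adjusted p under 0.05, and 0 of the 20 member probe sets. At an unadjusted p under 0.05, 3 member probe sets were lower in null and 0 were higher, against 2.20% of all probe sets lower and 2.84% higher; 2 of the 3 were Shmt1 and the third was the dim Tyms probe set 1427811_at. When pools of one number were treated as pairs and the variance model used limma's trend and robust options, the fit called 22 probe sets (0.0488%), among them 1425177_at and 1425178_s_at, the first and the third smallest p of the table. That contrast chose Shmt1, so nothing is read from those calls. It called 0 of the 16 probe sets of the other enzymes (smallest adjusted p = 0.629, limma), and the block without those options called 0 of all 45037. The null pools lay entirely below the wild-type pools in 4 of 20 member probe sets (4.41% of all), 3 of which were Shmt1, and entirely above in 1 (5.57% of all).

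**Figure D2:**
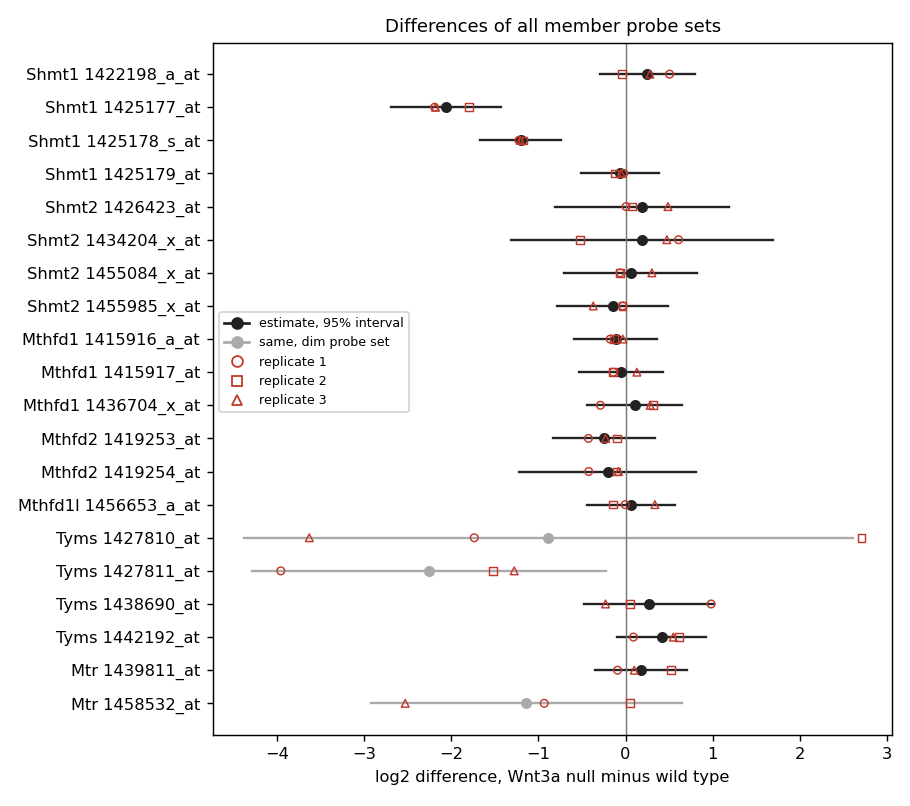
Log2 difference, Wnt3a null minus wild type, of all 20 member probe sets, with 95% intervals from limma without a block and open symbols for the difference within each replicate number; grey marks probe sets at or below the median signal. Apart from Shmt1 1425177_at and 1425178_s_at, every bright probe set has an interval that spans 0, and the 3 grey ones have the widest intervals.

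Shmt2, the mitochondrial isoenzyme, which supplies most of the one-carbon units in many dividing cells, had 4 probe sets. The brightest, 1455084_x_at, had signals of 1400.3, 2238 and 1858 in null pools, against 1461, 2338.5 and 1506 in wild-type pools. The genotypes overlapped almost fully, and in both the pool of replicate 1 was the lowest and that of replicate 2 the highest. This is a log2 difference of 0.06 (95% interval -0.70 to 0.82, limma adjusted p = 1.00), and the interval leaves room for a rise of up to 0.82 or a fall of up to 0.70. Probe set 1426423_at followed the same order of pools, with 421, 867 and 684 in null and 419.6, 822 and 488 in wild-type pools. Its log2 difference was 0.19, and 1455985_x_at (-0.15) and 1434204_x_at (0.19) were also near 0. The suffix x_at warns that some probes can match other sequences, which touches 3 of the 4 Shmt2 probe sets.

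Mthfd1 encodes the cytosolic enzyme that interconverts formyl, methenyl and methylene forms of tetrahydrofolate and takes in formate. Its brightest probe set, 1415916_a_at, had 8483, 9504 and 9961 in null pools, against 9575, 10434 and 10176 in wild-type pools. The null values were lower within each replicate number, yet the groups overlapped. On the log2 scale the genotypes differed by -0.11 (95% interval -0.59 to 0.36, limma adjusted p = 1.00). The second probe set, 1415917_at, had -0.05, and 1436704_x_at had 0.10. Its 3 probe sets thus lay within 0.22 of each other and on both sides of 0.

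Mthfd2, a mitochondrial dehydrogenase and cyclohydrolase that is high in embryonic and tumour cells, had lower values in null pools on both of its probe sets. For 1419253_at the signals were 2178, 3098 and 3008 in null pools, against 2925.5, 3310.5 and 3526 in wild-type pools. The groups overlapped, although the null pool was the lower one within each replicate number. The log2 difference was -0.25 (95% interval -0.84 to 0.34, limma adjusted p = 1.00), and with the block, trend and robust options the adjusted p was 0.629. For 1419254_at the signals were 2701, 1502 and 2564 in null pools, against 3619, 1615 and 2709 in wild-type pools. The spread between replicate numbers exceeded the difference between genotypes, which was -0.20 on the log2 scale. Neither probe set passed the test.

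Mthfd1l, the mitochondrial synthetase that releases formate, had 1 probe set, 1456653_a_at. Its signals were 2845, 2551 and 3042 in null pools, against 2853, 2816 and 2409 in wild-type pools. Its log2 difference, null minus wild type, was 0.06 (95% interval -0.44 to 0.56, limma adjusted p = 1.00), and the 3 replicate numbers disagreed in sign.

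Tyms, thymidylate synthase, uses 5,10-methylenetetrahydrofolate to make the thymidylate for DNA. Of its 4 probe sets, 2 lay below the median signal of the array, and a further probe set annotated with Tyms together with another symbol was not counted. The brightest, 1442192_at, had 184, 228 and 227 in null pools, against 173, 149 and 155 in wild-type pools. All null values lay above all wild-type values, with a log2 difference of 0.42 (95% interval -0.09 to 0.93), but the test was not passed (limma adjusted p = 1.00). Probe set 1438690_at had 165, 98.8 and 105 in null pools, against 83.6, 95.2 and 123 in wild-type pools, and overlapped. The 2 other Tyms probe sets lay below the median signal of 71.5. There 1427811_at had 2.44, 17.1 and 17.2 in null pools, against 37.9, 49.0 and 41.8 in wild-type pools, which gives on the log2 scale -2.25 with a wide 95% interval of -4.28 to -0.22 (limma adjusted p = 0.974). The last, 1427810_at, had signals of 1.12 to 25.7 in null pools, against 3.72 to 24.6 in wild-type ones. The Tyms probe sets did not share a direction.

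Mtr, methionine synthase, passes a methyl group from folate to homocysteine. Probe set 1439811_at had 471, 554 and 466 in null pools, against 502, 386 and 435 in wild-type pools. The groups overlapped, and the log2 difference was 0.18 (95% interval -0.35 to 0.71, limma adjusted p = 1.00). The dim probe set 1458532_at had 40.9, 22.7 and 9.44 in null pools, against 78.1, 21.9 and 54.5 in wild-type pools, also with overlap.

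**Figure D3:**
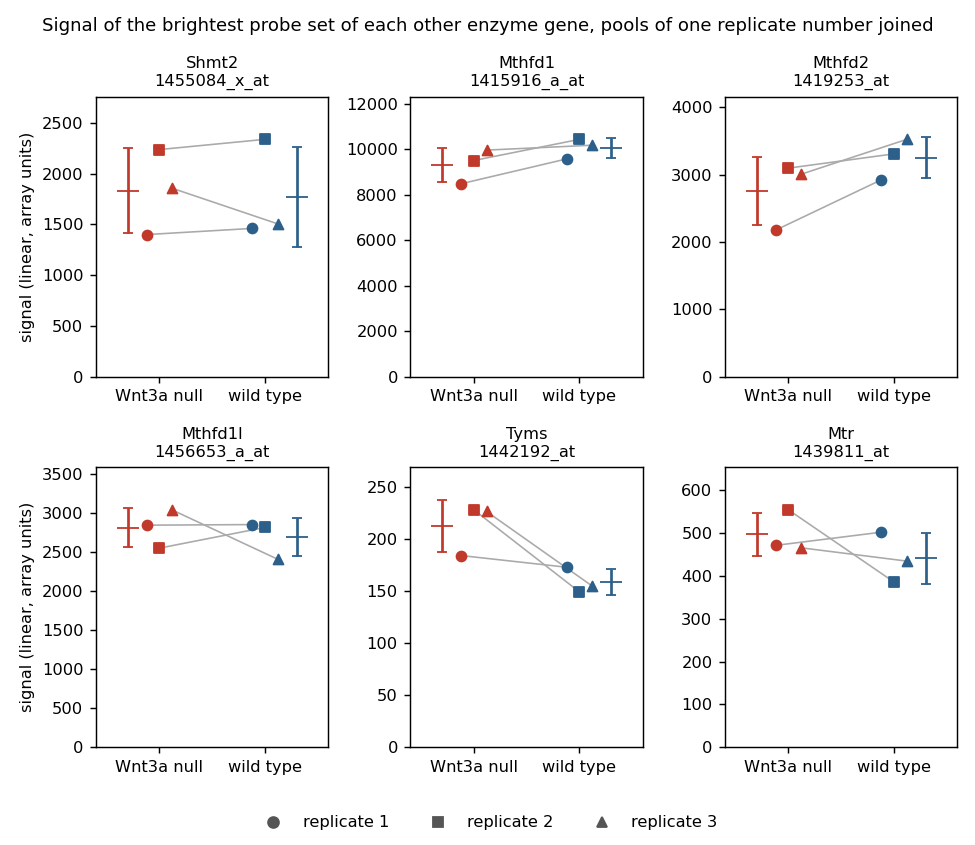
Linear signal of the brightest probe set of Shmt2, Mthfd1, Mthfd2, Mthfd1l, Tyms and Mtr in each of 3 Wnt3a null and 3 wild-type pools (vertical axes from 0), with lines joining pools of 1 replicate number and the mean and SD (n = 3) at the side. Only the Tyms panel has groups that do not overlap, at 184 to 228 in null pools, against 149 to 173 in wild-type ones; in the Shmt2 panel replicate 2 is the highest in both genotypes.

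Over the 16 probe sets of the 6 other enzyme genes, 8 had lower and 8 had higher estimates in null pools, with a median log2 difference of 0.00 against 0.01 over all probe sets. For the 13 of them above the median signal, log2 differences ran from -0.25 to 0.42. In value, no enzyme that shares the folate pool with Shmt1 had a bright probe set that differed as far as 1425177_at or 1425178_s_at. Those Shmt1 probe sets had stood out before the group was drawn up, so nothing is read from that contrast.

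Genes around these enzymes were read by their brightest probe set in 9 lists grouped by role, 87 measured genes in all. Limma called 0 of the 87 in either direction, as it called 0% of 18193 genes. At an unadjusted p under 0.05, 0 were lower and 1 was higher (1.90% and 2.56% of all genes), and the fit with the block, trend and robust options called 0 (0.0660% of all genes). Of the 87, 43 had lower and 44 higher estimates, and their median log2 difference was 0.01 against 0.00 over all genes. The list medians below were small, and each of the 9 changed sign in at least 1 of 19 other settings, so that they carry no direction.

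Folate carriers, receptors and retention enzymes had a median log2 difference of 0.04 over 8 genes. Fpgs, which adds glutamates that hold folate in the cell, had 595 ± 167 in null pools, against 516 ± 175 in wild-type ones (SD, n = 3 each). Slc46a1, the proton-coupled folate transporter, had a log2 difference of -0.21, and Folr2, a folate receptor, of 0.23 at signals below the median. Among 8 other folate-interconverting enzymes the median was -0.10. Gart, a trifunctional enzyme of purine synthesis that uses formyl-tetrahydrofolate, had 6683 ± 479 in null pools, against 7537 ± 251 in wild-type ones; its groups did not overlap, and the log2 difference was -0.18 (limma adjusted p = 1.00). Mtfmt, which formylates the initiator transfer RNA of mitochondria, had -0.33, and the dim Aldh1l1, a formyl-tetrahydrofolate dehydrogenase, -1.16 with a standard error of 1.09.

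The glycine cleavage and choline-side genes had a median of -0.10 over 7 genes, with Dld, a shared dehydrogenase subunit, at 0.11, Dmgdh, which demethylates dimethylglycine, at -0.14 and the dim Sardh, sarcosine dehydrogenase, at -0.75. Serine synthesis and uptake genes had 0.01 over 7 genes. There the neutral amino acid carriers Slc1a4 and Slc1a5 had -0.29 and 0.20, and Psph, the last enzyme of serine synthesis, had 1158 ± 14.7 in null pools, against 1075 ± 141 in wild-type ones. In the methionine cycle the median was -0.09 over 12 genes. Mat1a, a methionine adenosyltransferase of adult liver, was the gene with an unadjusted p under 0.05, at signals of 25.1 ± 6.89 in null pools, against 9.85 ± 7.20 in wild-type ones, near the floor of the arrays (limma adjusted p = 0.974). Bhmt2, a homocysteine methyltransferase, had -0.33 and Mat2b, a regulatory subunit, 0.19.

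Thymidylate and deoxynucleotide genes, which lie next to Tyms in the pathway, had a median of 0.04 over 10 genes, and 0 of them passed. Rrm2, the regulated subunit of ribonucleotide reductase, had 18523 ± 1722 in null pools, against 16212 ± 1039.9 in wild-type ones, a log2 difference of 0.19. Rrm2b, a related subunit, had 0.17, and Dut, which degrades dUTP, 0.20. Purine synthesis genes had -0.05 over 9 genes, with Adss at -0.12 and Paics at -0.08, both enzymes of that route, and Prps2, which makes its ribose phosphate donor, at 0.51 (8154 ± 2447 in null, 5611 ± 778 in wild type, limma adjusted p = 1.00).

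Replication genes had a median of 0.05 over 15 genes. Mcm4 and Mcm3, subunits of the replicative helicase, had log2 differences of 0.31 and 0.20 with null pools above wild-type pools in each case, and Gins1, of the same replication machinery, had -0.26. The null pools lay entirely above the wild-type pools in 3 of the 15, Mcm3, Mcm4 and Ccne2, against 5.56% of all genes, and 0 passed the test. Over all lists together they lay entirely above in 5 of 87 genes and entirely below in 1 (4.56% of all genes). The list of amino acid stress factors and their targets had a median of 0.01 over 11 genes. Atf4, a transcription factor that drives serine and mitochondrial folate genes, had 4173 ± 791 in null pools, against 3128 ± 518 in wild-type ones, a log2 difference of 0.41. Its target Trib3 had 1.39 at signals near the median, and Mycn, a growth regulator, 0.17. None of these passed (limma adjusted p = 1.00 for each of the 3).

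**Figure D4:**
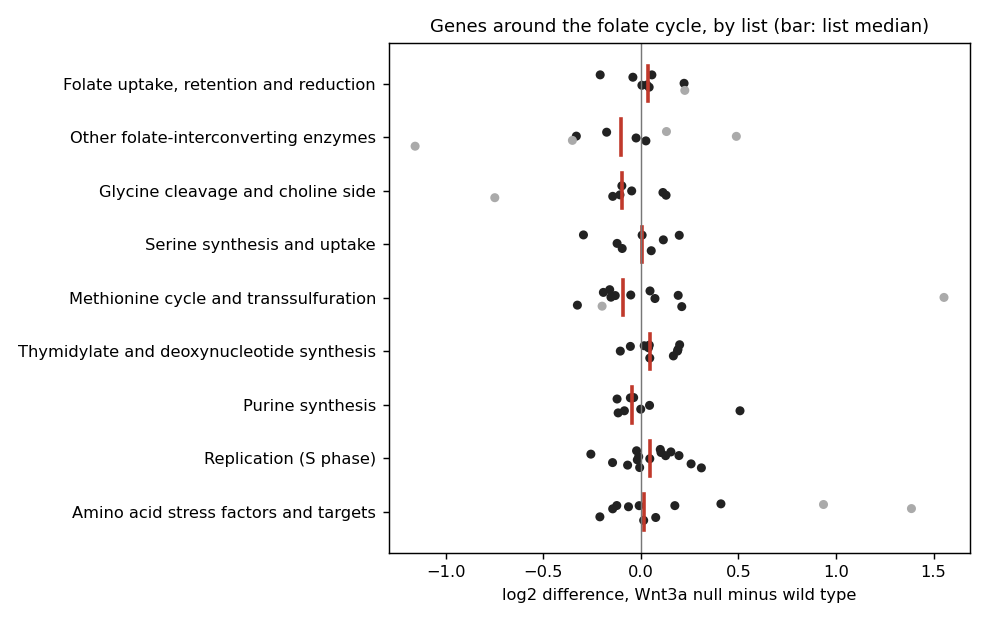
Log2 difference, Wnt3a null minus wild type, of the 87 measured genes of 9 lists (1 point a gene by its brightest probe set; grey marks genes at or below the median signal; the bar is the list median). Medians run from -0.10 to 0.05, though each changes sign under some other processing, and the points farthest from 0 are mostly grey.

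Shmt1 lies on chromosome 11, as does Wnt3a, with Wnt3a the 32nd measured gene away by order. Sequence linked to the null allele on a mixed background and the absence of Wnt3a cannot be told apart for a gene on the same chromosome. The 10 measured genes on each side of Shmt1 were read by their brightest probe sets. Limma called 0 of these 20, with 0 at an unadjusted p under 0.05, and the fit with the block, trend and robust options called 0. Their median log2 difference was 0.00, with 10 lower and 10 higher estimates, 1 gene with all null pools below and 2 with all null pools above the wild-type pools (4.56% and 5.56% of all genes). The adjacent Smcr8, which acts in autophagy, had 324 ± 29.0 in null pools, against 285 ± 4.97 in wild-type ones, while its dim second probe set 1437701_at had 22.8, 3.74 and 6.59 in null pools, against 16.6, 105 and 50.7 in wild-type ones, with overlap and an unadjusted p of 0.0436 (limma adjusted p = 0.987). Over all 34 probe sets of the 20 neighbours, 2 had an unadjusted limma p under 0.05, and 0 were called. Of all probe sets, 2.20% were lower at that level and 2.84% higher. Null pools lay entirely below wild-type pools in 1 of the 34 and entirely above in 4 (4.41% and 5.57% of all). Top3a, a topoisomerase gene next to Smcr8, had 164 ± 24.0 in null pools, against 185 ± 60.1 in wild-type ones. By p the first of the 20 were Tnfrsf13b, a dim receptor gene with a log2 difference of 1.94, and Map2k3, a kinase gene with 0.49 (482 ± 90.2 in null, 340 ± 22.4 in wild-type pools). Neither passed the test.

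**Figure D5:**
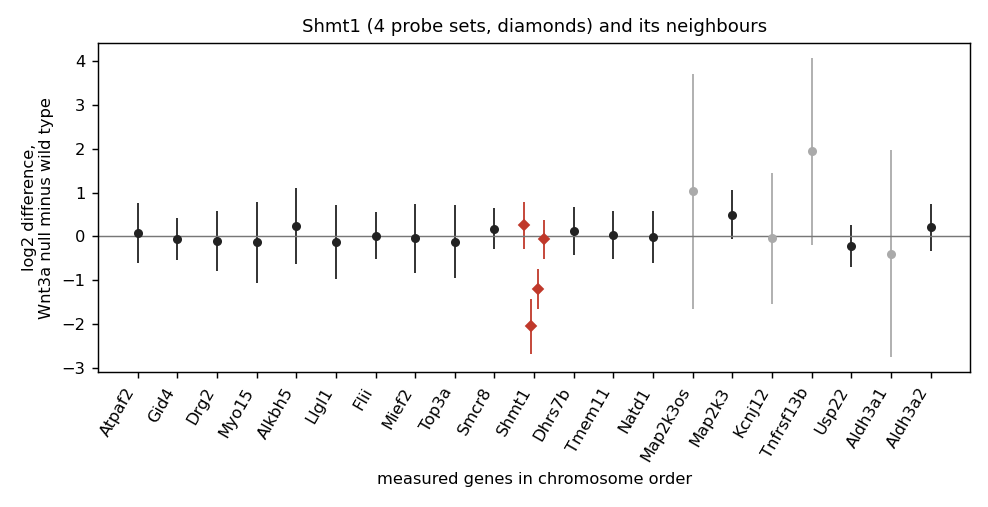
Log2 difference, Wnt3a null minus wild type, with 95% intervals, for the 10 measured genes on each side of Shmt1 in chromosome order and, as diamonds, for the 4 Shmt1 probe sets. The intervals of all 20 neighbours span 0, while 2 Shmt1 diamonds lie at -1.20 and -2.06; grey marks dim probe sets.

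Likeness of pattern was measured by Pearson correlation of log2 signals over the 6 arrays, among 19336 bright probe sets annotated with 1 gene. With 3 arrays in each genotype, a high value mostly says that a gene shares the step between genotypes. For 1425177_at the closest were Cdx1 (r = 0.989), Bcl6, a transcriptional repressor (0.987), and Nr2c2, a nuclear receptor gene (0.983). For 1425178_s_at they were Zfp24, a zinc finger gene (0.994), Tbx6, a T-box gene of paraxial mesoderm (0.994), and Cdx1 (0.992). The sizes differed: Cdx1 had 1021 ± 40.0 in null pools, against 2450.1 ± 66.0 in wild-type ones, whereas Nr2c2 had 1716 ± 100.4 in null pools, against 2059 ± 35.2 in wild-type ones. For 1425179_at the closest were Gngt2 (0.995), Parp2 (0.994) and St6gal1 (0.991), and for 1422198_a_at Apbb2 (0.990), Cdc23 (0.988) and Runx1t1 (0.987). Among the Shmt1 probe sets themselves, 1425177_at correlated at 0.969 with 1425178_s_at, at 0.647 with 1425179_at and at -0.724 with 1422198_a_at.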

How the data were processed

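Affymetrix Mouse Genome 430 2.0 arrays gave 1 intensity per probe set and array. Per the labels' protocols, 30 to 50 ng of RNA of each embryo was amplified, and 600 ng from 3 embryos was pooled for the second cycle. The deposited intensities are linear, and each array has a mean of 500 once 2% is trimmed from each end. The submitters' processing notes name RMA, whose form these values do not have; the sources used here do not name the step that made them. Of 45101 probe sets, 64 controls were left out. The platform annotation gives 34945 probe sets 1 symbol and 932 several, and 9160 are not listed; 34741 of the first matched RefSeq (GRCm38.p6) by gene ID.

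Signals were turned to log2 with no floor and compared in R 4.3.3 with limma 3.58.1 (lmFit, eBayes, no trend or robust options, no block), Benjamini-Hochberg adjusted over 45037 probe sets, two-sided, threshold 0.05. A gene was read by its probe set of highest mean log2; bright means above the median of these means, 6.16 (a signal of 71.5). Members and lists were chosen with earlier results of these data known. Named genes were all members, the 3 of smallest p per list, the 3 most like each Shmt1 probe set, the neighbours Smcr8 and Top3a with the 2 of smallest p, and Wnt3a, Axin2, Cdx1 and Sp5. Ccne2, Eif2s3y, Xist, Foxa2, Cdx2, Myl7 and Otx2 were added after their values were seen. Listed genes that did not match 1 symbol were not analysed here. The fit was run on simulated data with known differences and independent noise. Pools of the same number shared nothing there, so the block was not tested on shared variation.

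Both genotypes carry replicates 1, 2 and 3. Deviations from genotype means correlated at 0.422, 0.454 and 0.282 within a number over the 18088 probe sets with mean log2 above 7, but over all probe sets at 0.0537, 0.0524 and 0.0338, so that the bound of 0.1 for pairing was passed by the bright probe sets and not by all; the level of 7 was taken over from earlier work on these data. What pools of one number have in common is not stated. Alternatives were the block, trend and robust options, both together, log2(signal + 50), a filter at the median, quantile, cyclic loess and median centring, array weights, and leaving out arrays or pairs.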

Additional observations from a re-analysis of the deposited data

How the results depend on the processing

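Over the main and 18 other settings the Shmt1 log2 differences ran from -2.23 to -1.90 for 1425177_at and from -1.25 to -1.16 for 1425178_s_at. The small ones ran, relative to their size, more widely, from -0.12 to -0.04 for 1425179_at and from 0.12 to 0.39 for 1422198_a_at. For 1425179_at the value of -0.12, under median centring, moved by more than the spread between pools.

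Calls depended on the variance model, both by itself and together with the block. Limma without a block called 0 probe sets, and so did the replicate block alone, the other normalizations, each single array left out and a threshold of 0.1. Trend and robust options without a block called 1 probe set, Shmt1 1425177_at. The replicate block with trend and robust options called 22 probe sets, 2 of them members, both of Shmt1; on log2(signal + 50), added after seeing the data, it called 16 and again 2 members. Without both arrays of number 1, 2 or 3 this fit called 21, 138 and 27 probe sets, each time with 2 members, and without number 2 it called 1 list gene, Prps2. This contrast chose Shmt1, so nothing is read from the return of its calls across settings. The cause of the dependence on the settings was not tested.

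Estimates of the other enzymes' probe sets changed sign in 20 cases, none past the threshold. The medians of all 9 lists changed sign in at least 1 of 19 other settings, between -0.236 and 0.181 at the widest; over single arrays left out, the amino acid stress list ran from -0.144 to 0.161, the other folate enzymes from -0.230 to 0.0720, serine synthesis from -0.118 to 0.0966 and thymidylate from -0.0019 to 0.139. Over the single arrays left out, Tyms 1427810_at ran from -2.26 to 0.0083, Shmt2 1426423_at from -0.0405 to 0.480, Shmt2 1434204_x_at from -0.313 to 0.749, Shmt2 1455084_x_at from -0.0984 to 0.278, Mthfd1 1415917_at from -0.101 to 0.0060, Mthfd2 1419254_at from -0.521 to 0.0674 and Mthfd1l 1456653_a_at from -0.0150 to 0.132. Without both arrays of number 1, Shmt2 1434204_x_at had -0.0242 and Tyms 1438690_at -0.0883; without number 2, Mthfd1 1436704_x_at had -0.0029; without number 3, Shmt2 1455084_x_at had -0.0624, Mthfd1l 1456653_a_at -0.0734 and Tyms 1427810_at 0.486. Dim probe sets, such as 2 of Tyms and 1 of Mtr, limit what can be said of those genes.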
